A study of Sus scrofa domesticus with 150 samples.

Results

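The 8 genes described here encode proteins of the contractile machinery of smooth muscle and myofibroblasts (ACTA2, TAGLN, MYL9, TPM2, CNN1, MYH11 and LMOD1) and FAP, a surface protease of activated fibroblasts. They were taken by gene symbol from a table of read counts for 30461 genes, and each of the 8 symbols matched 1 gene. RNA was sequenced from 150 tissue samples of 6 female domestic pigs (Yorkshire mix), each of which carried circular full-thickness excisional wounds of 2 cm on the back. All wounds healed under the same dressings (Telfa Clear and Tegaderm), and biopsied sites received an antibiotic ointment. Skin excised on day 0 gave 6 samples, 1 from each animal. Each of 72 wounds then gave a 3.5 mm biopsy of its edge and another of its center on 1 of 14 days, after which that wound left the experiment. Animals 1323, 1324 and 1325 were sampled on days 1, 3, 5, 7, 11, 15 and 21, and animals 1326, 1327 and 1328 on days 2, 4, 6, 9, 13, 16 and 19. A state (a day and location) held 6 samples on 10 days, from 2 wounds of each of 3 animals, and 3 samples on the other 4 days. Since a single day holds 3 animals, adjacent days were joined into 7 windows of 2 days, each of which holds all 6 animals.

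Contraction in these cells rests on actin filaments pulled by myosin. ACTA2 is the smooth muscle actin, which fibroblasts take up into stress fibers when they become myofibroblasts, the cells that contract wounds. MYL9 is the regulatory light chain of the myosin, TPM2 a tropomyosin lying along the actin filament, and TAGLN and CNN1 (calponin) bind actin filaments. MYH11, the smooth muscle myosin heavy chain, and LMOD1, which nucleates actin filaments, are found mainly in differentiated smooth muscle, which in skin surrounds vessels and forms the small muscles of the hairs. In bulk tissue, fewer cells of a type and less RNA per cell cannot be told apart.

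Total counts per sample were between 13133379 and 24895572, and all 8 genes had reads in all 150 samples. Levels are given as CPM, the count of a gene scaled by the library total, and per kilobase of gene length where genes are compared with each other. Of the smooth muscle markers, MYH11 and CNN1 were present in all day 0 skin samples, with medians of 342 and 112 CPM. The 4 myofibroblast markers did not move together in the wound centers of days 7 and 9. FAP was 1.76 ± 0.21 (log2, SE) above day 0 skin, POSTN was 3.98 lower, LRRC15 was 4.74 lower and ACTA2 did not pass the test. Of 17 activated fibroblast genes tested, which include POSTN and LRRC15, 14 were higher than in day 0 skin and these 2 were lower, against 32.6% and 34.3% of all genes. Coding sequences of the actins ACTA2, ACTG2 and ACTA1 are closely alike, as are those of the myosin heavy chains, and how shared reads were counted is not given in the sources used here. Some biopsies stood apart in their markers. Of the wound samples, 23 (15 centers and 8 edges) had a mean skeletal muscle marker level above that of every day 0 sample. The day 3 edge sample 6 had a mean epidermal keratinocyte marker level of 2.29 (log2(1 + CPM)), against at least 9.09 in the other edge samples, and the day 3 center sample 4 reached 10.32, a level of edges. The day 1 center sample 5 had 9.57. The 4 samples left out together in an alternative fit, because they stood apart from their replicates, were the day 2 center sample 2, the day 3 center sample 4 and the day 3 edge samples 5 and 6. The edge samples of days 7 and 9 had mean keratinocyte levels between 9.54 and 10.97, those of the center between 1.90 and 4.67, and what the epidermis in the edge biopsies contributes to each edge and center difference was not tested.

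In day 0 skin the order per kilobase was TAGLN at 181 ± 46.8 CPM (mean ± SD, n = 6), ACTA2 at 156 ± 41.8, MYL9 at 101 ± 28.4, CNN1 at 69.8 ± 27.3, MYH11 at 58.3 ± 16.0, TPM2 at 49.0 ± 16.9, FAP at 12.7 ± 2.72 and LMOD1 at 3.93 ± 0.92. From TAGLN down to TPM2 each gene overlapped the next within 1 SD, and FAP and LMOD1 stood apart below. In the centers of day 7 the order was TAGLN at 367 ± 122, TPM2 at 190 ± 31.9, ACTA2 at 168 ± 66.6, MYL9 at 143.8 ± 23.7, FAP at 39.5 ± 9.02, CNN1 at 19.3 ± 5.89, MYH11 at 4.77 ± 2.32 and LMOD1 at 2.33 ± 0.52. Within 1 SD, TPM2 overlapped ACTA2 there, ACTA2 overlapped MYL9 and MYH11 overlapped LMOD1, whereas the other neighbors did not. TPM2 and FAP had moved up in that order, CNN1 and MYH11 had moved down, and ACTA2 and MYL9 now stood below TPM2.

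**Figure D1:**
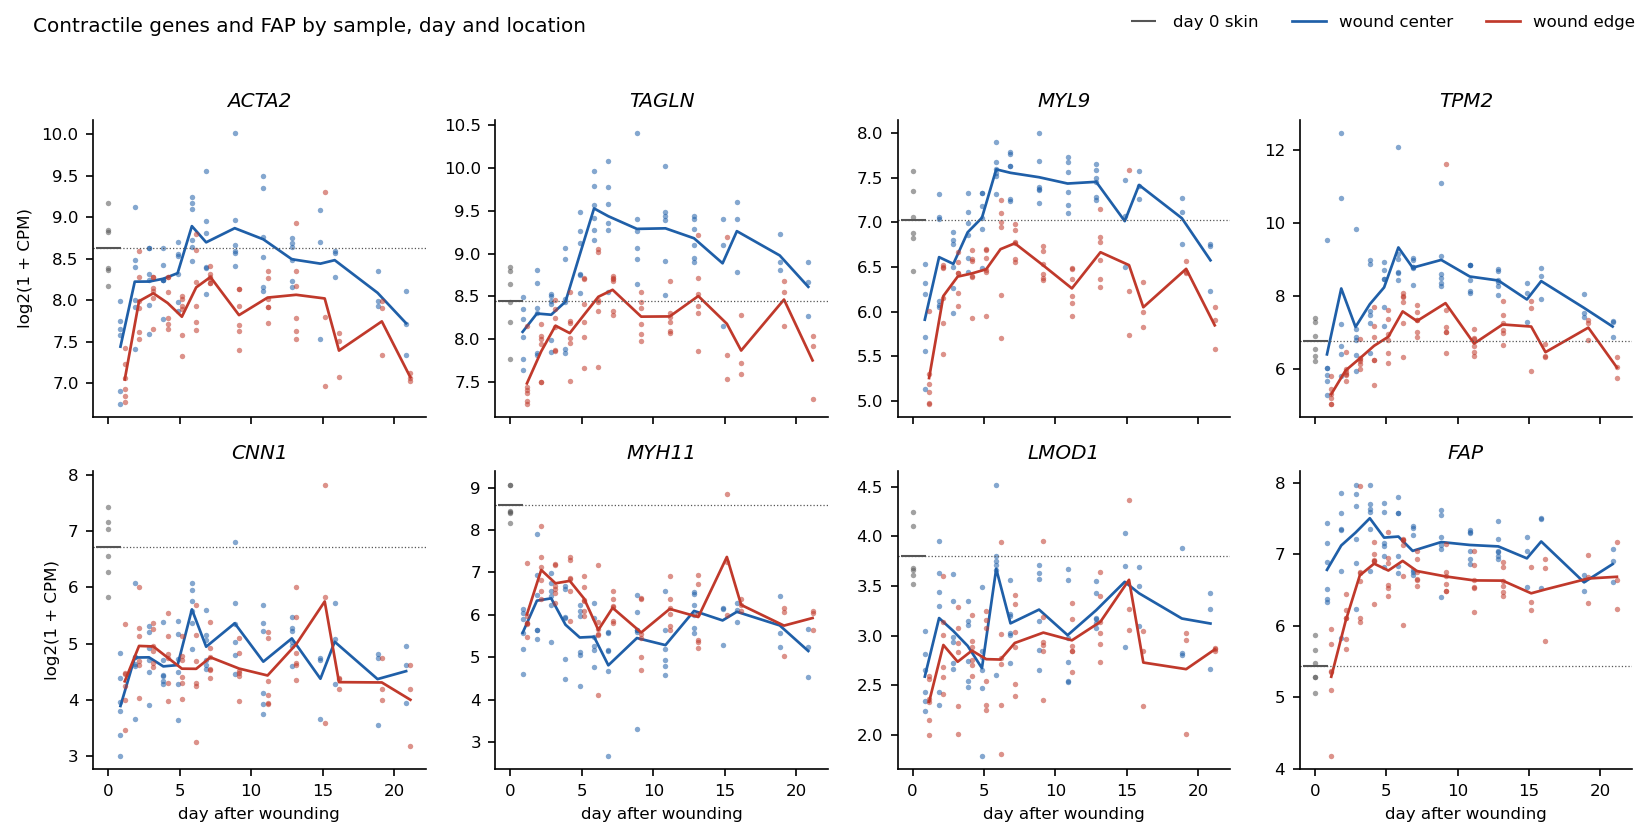
Level of each gene, as log2(1 + CPM), in every sample (points) and as the mean of each day (lines) for wound centers (blue) and edges (red). Grey points and the dotted line show the 6 day 0 samples and their mean. The daily means of MYH11 and CNN1 lay below the day 0 line at both locations and those of FAP centers above it, and TPM2 had single samples far above the rest.

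MYH11 and CNN1, both of differentiated smooth muscle, fell in the wound and stayed low to day 21. Among smooth muscle markers outside the set, ACTG2 was also lower in the centers of days 7 and 9, whereas DES and SYNPO2 were not called lower. Of the centers of that window, 4 were high in skeletal muscle markers, and their part in the values of these markers was not tested. MYH11 was between 286 and 532 CPM in day 0 skin, with a median of 342. In the centers of days 7 and 9 it was between 5.43 and 87.6 CPM, with a median of 47.1, so that the groups did not overlap. All 72 center samples and 71 of 72 edge samples lay below the lowest day 0 sample. The exception was the day 15 edge sample 2 (animal 1324), at 462 CPM. The fall in the center was 2.65 ± 0.32 on the log2 scale on days 1 and 2, reached 3.22 ± 0.32 (9.32-fold lower) on days 7 and 9 and was 2.96 ± 0.41 on days 19 and 21, with edgeR adjusted p-values of 8.53e-13, 1.24e-16 and 9.89e-10. At the edge MYH11 fell by 2.08 ± 0.31, 2.64 ± 0.32 and 2.55 ± 0.40 in the same windows. CNN1 was between 55.7 and 171 CPM in day 0 skin, with a median of 112. In the centers of days 7 and 9 it was between 21.0 and 110 CPM, with a median of 32.1. Only the day 9 center sample 3 of that window entered the day 0 range. CNN1 was 2.53 ± 0.31 lower (log2) on days 1 and 2, 1.48 ± 0.31 lower (2.79-fold) on days 7 and 9 and 2.18 ± 0.39 lower on days 19 and 21 in the center. Its calls in all 7 center windows, like those of MYH11 in all 7 windows of both locations, were kept under every alternative run. LMOD1, the least abundant of the set, was between 10.5 and 18.0 CPM in day 0 skin and between 5.27 and 12.1 CPM in the centers of days 7 and 9. It fell by 1.11 ± 0.25 on days 1 and 2 and by 0.59 ± 0.25 on days 7 and 9, and it did not pass the test on days 15 and 16 (-0.19 ± 0.30, adjusted p = 0.614) or 19 and 21 (-0.52 ± 0.30, adjusted p = 0.145). The call on days 7 and 9 was lost under 7 of 19 alternatives, among them no filter on low counts and leaving out samples numbered 2, 4 or 6 or animal 1324, 1325 or 1326.

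ACTA2 followed another course. It was between 287 and 576 CPM in day 0 skin, with a median of 393. On days 1 and 2 the center samples were between 107 and 557 CPM, with a median of 228, and ACTA2 was 0.90 ± 0.21 lower than in day 0 skin (edgeR adjusted p = 7.04e-05). On days 7 and 9 they were between 269 and 1031 CPM, with a median of 394, close to the day 0 median, and the difference was 0.28 ± 0.22 (adjusted p = 0.246). From days 1 and 2 to days 7 and 9 ACTA2 rose by 1.18 ± 0.18 in the center (adjusted p = 7.71e-09). The mean adipocyte marker level of the centers was 9.36 on days 1 and 2 and 5.27 on days 7 and 9 (log2(1 + CPM)), against 5.47 in day 0 skin. What this contributes to the changes of the 8 genes between these windows was not tested. By days 19 and 21 ACTA2 had fallen again by 0.86 ± 0.22 (adjusted p = 0.000887) and was 0.58 ± 0.25 below day 0 (adjusted p = 0.0476), a call lost under 11 of 19 alternatives. Among these were the animal as a replicate block (adjusted p = 0.0516) and leaving out samples numbered 2, 3, 4 or 5 or animal 1324, 1325, 1326 or 1328. Of the 72 center samples 24 lay below, 43 within and 5 above the day 0 range. At the edge ACTA2 was below day 0 skin in 6 of 7 windows, and on days 11 and 13 it was -0.40 ± 0.21 (adjusted p = 0.11). The edge calls were lost under 7 of 19 alternatives on days 15 and 16, 4 of 19 on days 7 and 9 and 1 of 19 on days 3 and 4.

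The ratio of ACTA2 to MYH11 set the wound apart from skin. Per kilobase, ACTA2 was between 2.25 and 3.40 times as abundant as MYH11 in day 0 skin, with a median of 2.599. In the centers of day 7 the ratio was between 14.6 and 161, with a median of 34.5. On day 9 it was between 10.1 and 302, with a median of 20.6. Every center sample and 71 of 72 edge samples exceeded the highest day 0 ratio. In each animal, the change of ACTA2 from its own day 0 skin to its centers of day 7 or 9 exceeded that of MYH11, by 3.61 ± 0.95 (SD, n = 6 animals). The difference was positive in 6 of 6 animals (exact permutation test by sign flips, two-sided p = 0.0312, the smallest that 6 animals allow). ACTA2 changed by 0.15 ± 0.56 and MYH11 by -3.45 ± 0.85 over the same animals. The corresponding difference of FAP over ACTA2 was 1.52 ± 0.90, positive in 5 of 6 animals (exact p = 0.0625).

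TAGLN and MYL9 rose above day 0 skin in the center. TAGLN was between 217 and 459 CPM in day 0 skin, with a median of 372, and between 375 and 1360 CPM in the centers of days 7 and 9, with a median of 636. Of the 72 center samples 39 lay above the highest day 0 sample, against 4 of 72 at the edge. TAGLN did not pass the test on days 1 and 2 (-0.41 ± 0.20, edgeR adjusted p = 0.063). It was 0.76 ± 0.21 higher on days 5 and 6 and 1.04 ± 0.21 higher (2.05-fold) on days 7 and 9 (adjusted p = 8.64e-06), and 0.48 ± 0.23 on days 19 and 21 (adjusted p = 0.084). MYL9 fell first, by 0.88 ± 0.17 on days 1 and 2, was then 0.55 ± 0.18 higher (1.47-fold) on days 7 and 9 (adjusted p = 0.00503) and 0.47 ± 0.18 higher on days 11 and 13 (adjusted p = 0.0171). The second MYL9 call was lost under 4 of 19 alternatives: without TMM scaling, without samples numbered 6 and without animal 1323 or 1328. At the edge TAGLN passed the test on days 1 and 2 only (-0.90 ± 0.20), and MYL9 was lower than day 0 skin in all windows but days 7 and 9 (-0.37 ± 0.17, adjusted p = 0.0697). These MYL9 calls were lost under 3 of 19 alternatives on days 5 and 6, 7 of 19 on days 11 and 13 and 8 of 19 on days 15 and 16.

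FAP was higher in the wound from the first window on. It was between 32.6 and 57.9 CPM in day 0 skin, with a median of 40.7, and 71 of 72 center samples were above that range. The centers of days 1 and 2 were between 56.1 and 232 CPM, with a median of 130, and those of days 3 and 4 between 74.5 and 250 CPM, with a median of 195. FAP was 1.43 ± 0.21 above day 0 on days 1 and 2, 1.92 ± 0.22 on days 3 and 4, 1.76 ± 0.21 (3.38-fold) on days 7 and 9 and 1.45 ± 0.23 on days 19 and 21. The calls in the 7 center windows were kept under every alternative run. On days 1 and 2 the edge was 1.26 ± 0.16 below the center (edgeR adjusted p = 2.77e-11). The edge samples were between 17.2 and 85.9 CPM, with a median of 54.2, and their difference from day 0 was 0.17 ± 0.20 (adjusted p = 0.513). On days 3 and 4 the edge was 1.34 ± 0.21 above day 0.

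TPM2 cannot be read without the skeletal muscle markers, since this tropomyosin is also a protein of skeletal muscle fibers. It was between 72.2 and 165 CPM in day 0 skin, with a median of 105. In the centers of days 1 and 2 it was between 37.7 and 147 CPM, with a median of 63.5, in the 8 samples without raised muscle markers. It was between 49.9 and 5606 CPM, with a median of 1190, in the 4 samples with them. The latter included the day 1 center sample 6 at 742 CPM, the day 2 center sample 2 at 5606 CPM and the day 2 center sample 6 at 1639 CPM. All 11 skeletal muscle markers tested were above day 0 in the fit of these centers, against 5958 of all 17916 genes tested. The median log2 fold change of the markers was 7.49. That value came from those few samples, since the mean marker level was between 0.52 and 0.90 (log2(1 + CPM)) in the 8 others, below the lowest day 0 sample at 1.04. Over all samples, the fit gave TPM2 as 2.01 ± 0.60 higher than day 0 on days 1 and 2. Without the 23 samples it was 0.87 lower (adjusted p = 0.00315). Without the 4 samples that stand apart it was 1.00 (adjusted p = 0.0932). On days 7 and 9 the direction did not depend on them. The 8 centers without raised markers were between 308 and 546 CPM, all above the highest day 0 sample, and the log2 fold change was 2.35 ± 0.62 with all samples and 1.96 without the 23. On days 19 and 21 TPM2 was 0.76 ± 0.63 from day 0 (adjusted p = 0.336), and 0.77 (adjusted p = 0.0223) without them. At the edge TPM2 was 1.59 ± 0.59 above day 0 on days 7 and 9 (adjusted p = 0.0201), and 0.47 (adjusted p = 0.139) without those samples. ACTA2 did not spread in this way: it was between 119 and 547 CPM in the 15 centers high in muscle markers and between 107 and 1031 CPM in the other 57.

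**Figure D2:**
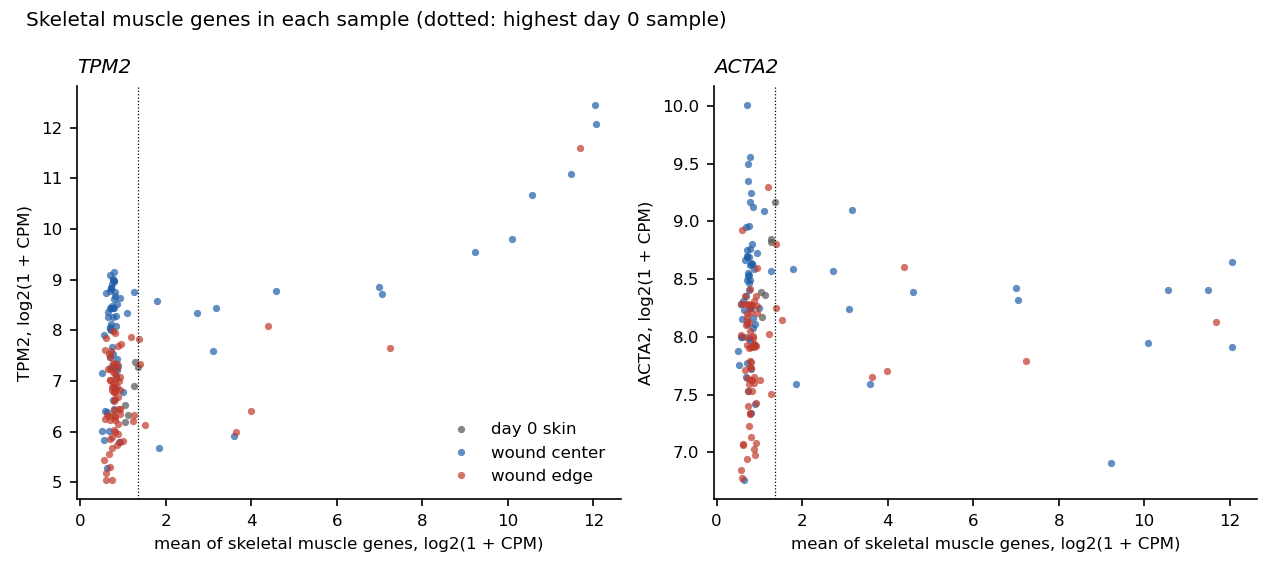
TPM2 (left) and ACTA2 (right) as log2(1 + CPM) against the mean skeletal muscle marker level of the same sample, with 1 point for each of the 150 samples, colored by location. The 23 samples right of the dotted line exceed every day 0 sample in muscle markers. TPM2 reached 5606 CPM among them and ACTA2 547 CPM in centers.

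The number of calls in the set is to be read against all 17916 genes tested. Against day 0, the center calls numbered 7, 6, 6, 7, 7, 5 and 4 of 8 in the 7 windows in order of time, where 65.7%, 66.5%, 69.1%, 66.9%, 63.2%, 56.2% and 44.9% of all genes were called. The edge calls numbered 7, 6, 6, 6, 5, 5 and 6 of 8, where 43%, 50.4%, 55.3%, 47%, 43.3%, 21.5% and 34.5% of all genes were called. On days 7 and 9 the set held 4 higher and 3 lower genes in the center, against 32.6% higher and 34.3% lower of all genes. On days 19 and 21 it held 1 higher (FAP) and 3 lower genes (MYH11, CNN1 and ACTA2), against 22% and 22.9%.

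**Figure D3:**
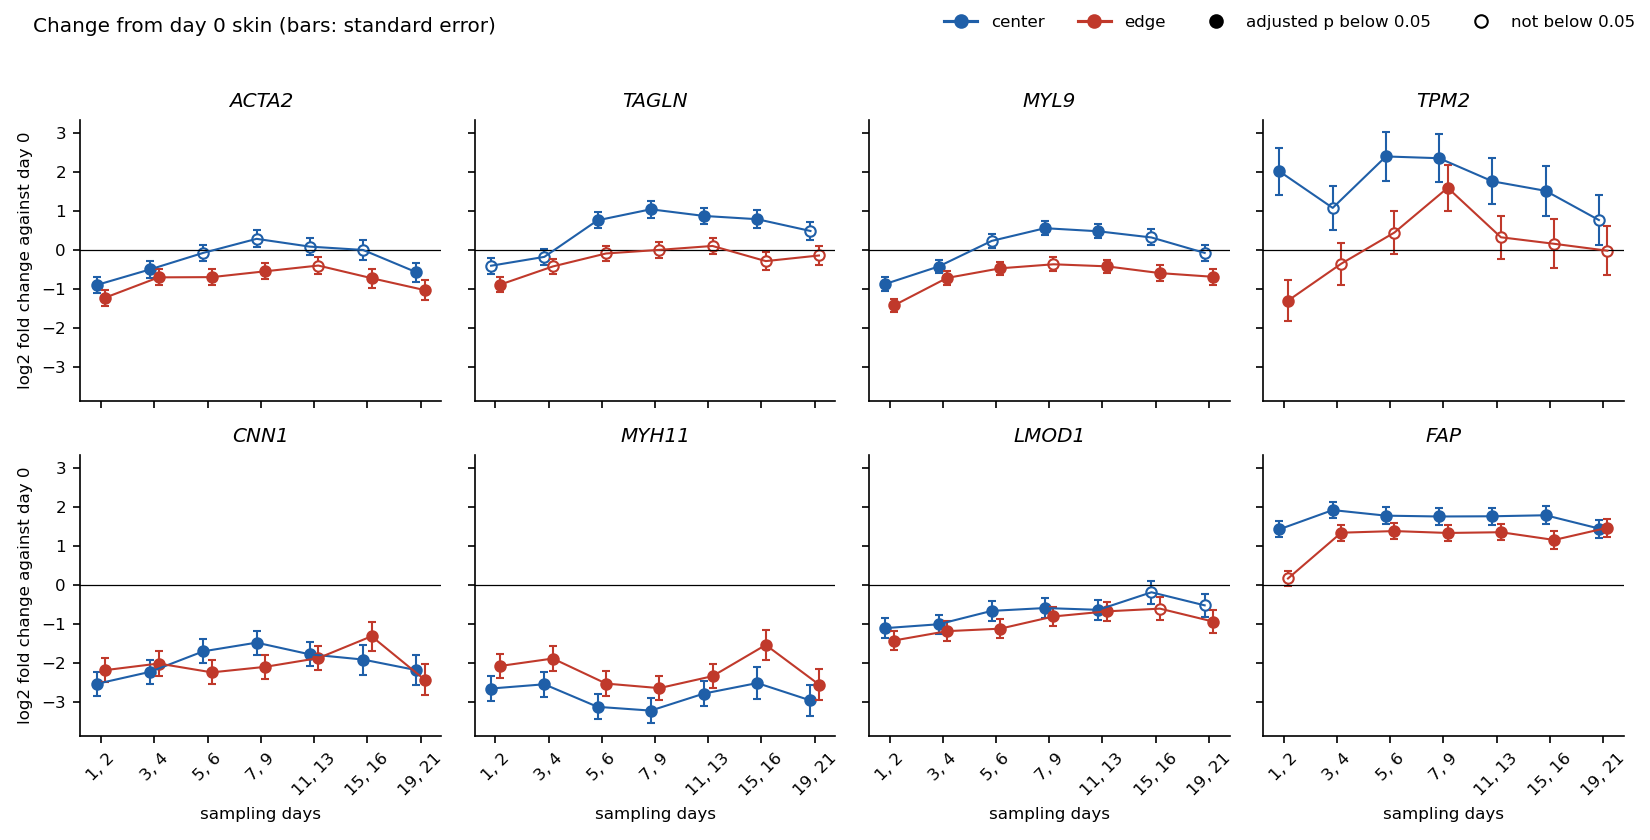
Log2 fold change from day 0 skin of each gene in 7 windows of 2 sampling days, for center (blue) and edge (red), from 1 edgeR fit of all 150 samples. Bars are standard errors, and filled points have an adjusted p below 0.05. In the center TAGLN and MYL9 peaked on days 7 and 9 at 1.04 and 0.55, MYH11 stood at -3.22 and FAP at 1.76, and the TPM2 points include samples high in skeletal muscle markers.

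Within the center, 5 of 8 genes rose from days 1 and 2 to days 7 and 9 (46.8% of all genes were called). They were TAGLN by 1.45 ± 0.17, MYL9 by 1.43 ± 0.15, ACTA2 by 1.18 ± 0.18, CNN1 by 1.06 ± 0.27 and LMOD1 by 0.52 ± 0.21. The LMOD1 call was lost under 10 of 19 alternatives in the center and 7 of 19 at the edge, in both without TMM scaling, with the wounds of an animal summed and without the samples high in muscle markers. MYH11 was -0.57 ± 0.27 (edgeR adjusted p = 0.0744), and -0.87 (adjusted p = 0.0281) without the samples high in muscle markers. TPM2 was 0.34 ± 0.45 (adjusted p = 0.564), and 2.83 (adjusted p = 5.13e-16) without them. From days 7 and 9 to days 19 and 21, 4 of 8 fell in the center (41% of all genes), namely ACTA2 by 0.86, MYL9 by 0.63, TAGLN by 0.56 and TPM2 by 1.59. These calls were lost under 1, 0, 4 and 6 of 19 alternatives. At the edge 6 of 8 rose from days 1 and 2 to days 7 and 9 (32% of all genes): TPM2 by 2.89, FAP by 1.17, MYL9 by 1.06, TAGLN by 0.90, ACTA2 by 0.67 and LMOD1 by 0.62. TPM2 at the edge was 1.82 without the samples high in muscle markers. From then to days 19 and 21 only TPM2 passed the test at the edge, at -1.61 ± 0.59 (16.6% of all genes), and without those samples it was -0.49 (adjusted p = 0.212).

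Most of the set was higher in the center than at the edge of the same wound. Over time 4, 3, 5, 5, 5, 5 and 0 of 8 genes passed the test between edge and center, where 56.4%, 33%, 39.2%, 44%, 45.8%, 34.2% and 0.0726% of all genes did. On days 7 and 9 TAGLN was 2.06-fold lower at the edge (log2 -1.04 ± 0.17, edgeR adjusted p = 7.28e-08). Edge samples were between 251 and 427 CPM, and center samples between 375 and 1360 CPM. MYL9 was 1.90-fold lower at the edge (-0.93 ± 0.15, adjusted p = 4.24e-08), with edge samples between 80.6 and 125 CPM and center samples between 148 and 255 CPM, which did not overlap. ACTA2 was 1.78-fold lower (-0.83 ± 0.17, adjusted p = 3.09e-05). CNN1 was -0.62 ± 0.27 (adjusted p = 0.0474), a call lost under 12 of 20 alternatives. Among these were the wound as a replicate block (adjusted p = 0.0562), the fit without the 4 samples that stand apart (adjusted p = 0.0532) and leaving out samples numbered 3, 4, 5 or 6 or animal 1323, 1325 or 1327. None of those 4 samples was of days 7 and 9, so that fit left every sample of this contrast in. FAP was -0.42 ± 0.16 (adjusted p = 0.0237), and -0.33 (adjusted p = 0.15) without the samples high in muscle markers. The call was lost under 7 of 20 alternatives, and the other losses came from leaving out samples numbered 1 or 5 or animal 1323, 1324, 1326 or 1328. The calls of TAGLN and MYL9 from days 5 and 6 to days 15 and 16, and that of ACTA2 on days 7 and 9, were kept under every alternative run. All 5 calls were lower at the edge, where 23.8% of all genes were higher and 20.2% lower at the edge. On days 1 and 2 TPM2 was -3.31 ± 0.49 (adjusted p = 3.1e-09), and -0.49 (adjusted p = 0.0614) without the samples high in muscle markers. It missed the test on days 7 and 9 (-0.76 ± 0.45, adjusted p = 0.168), when the day 9 edge sample 5 reached 3118 CPM. It was -1.49 (adjusted p = 3.45e-07) without the samples high in muscle markers and -1.38 (adjusted p = 0.000589) with the wound as a replicate block. On days 19 and 21 the 8 genes were between -0.79 and 0.41, none past the test. In that window 13 of 17916 genes were called. Each state held 3 samples, as on days 15 and 16, when 34.2% of all genes were called. On days 19 and 21 the mean keratinocyte marker level was 10.01 in centers and 10.35 at edges (log2(1 + CPM)). Its part in the differences of that window was not tested.

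MYH11 ran the other way. Its difference was positive in all 7 windows, at 0.41 to 0.98 on the log2 scale, and passed the test on days 3 and 4 (0.66 ± 0.27, edgeR adjusted p = 0.0476) and on days 15 and 16 (0.98 ± 0.38, adjusted p = 0.0373). The first call was lost under 15 of 20 alternatives, among them the fit without the samples high in muscle markers (0.52, adjusted p = 0.221) and every fit that left out 1 sample number or animal, apart from number 4 and animal 1327. The second was lost under 9 of 20, among them the wound as a replicate block (0.78, adjusted p = 0.104) and leaving out samples numbered 1, 2 or 3 or animal 1324, 1327 or 1328. That window holds the day 15 edge sample 2, which at 225 CPM for CNN1, 629 CPM for ACTA2 and 19.6 CPM for LMOD1 was also high in other members.

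With the animal as the unit, the difference between edge and center averaged over an animal's wounds had 1 sign in 6 of 6 animals for 6 of the 8 genes. The 5 higher in the center were TPM2 (-1.36 ± 0.26, mean ± SD of edge minus center on log2(1 + CPM)), TAGLN (-0.72 ± 0.10), MYL9 (-0.71 ± 0.16), FAP (-0.58 ± 0.06) and ACTA2 (-0.51 ± 0.13), and 34.5% of all genes were higher in the center in all 6 animals. MYH11 was higher at the edge in all 6 (0.59 ± 0.39), as were 28.8% of all genes. Each of the 6 reached the smallest p that 6 animals allow (exact permutation test by sign flips, two-sided p = 0.0312, adjusted over all genes 0.0493). Without the samples high in muscle markers TPM2 was -1.15 and kept 1 sign in all 6, and MYH11 was 0.56 (exact p = 0.0625). By wounds, the center was higher in 68 of 72 for TPM2, 66 for TAGLN, 65 for MYL9, 61 for FAP and 60 for ACTA2, and the edge in 51 of 72 for MYH11. LMOD1 was -0.25 ± 0.24, negative in 5 of 6 animals (exact p = 0.0625), and CNN1 was -0.12 ± 0.43, negative in 4 of 6 (exact p = 0.438).

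**Figure D4:**
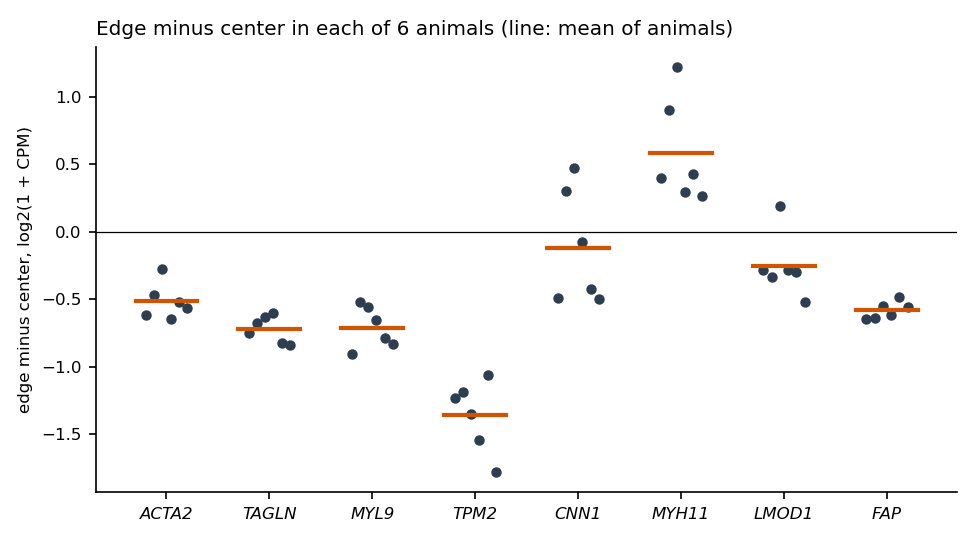
Edge minus center difference of each gene on log2(1 + CPM), averaged over the wounds of an animal, with 1 point for each of 6 animals and a line at their mean. TPM2, TAGLN, MYL9, FAP and ACTA2 lay below 0 in all 6 animals, MYH11 lay above 0 in all 6, and CNN1 and LMOD1 lay on both sides.

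The difference between edge and center itself changed from days 1 and 2 to days 7 and 9 for 3 of 8 genes (24.3% of all genes). For FAP it rose by 0.84 ± 0.23 (edgeR adjusted p = 0.0028), from -1.26 ± 0.16 to -0.42 ± 0.16, as the edge approached the center. For CNN1 it moved by -0.97 ± 0.37 (adjusted p = 0.0449), from 0.35 to -0.62, a call lost under 10 of 19 alternatives, among them the fits without TMM scaling, without the 4 samples that stand apart (adjusted p = 0.0553) and without the samples high in muscle markers (adjusted p = 0.0569). For TPM2 it moved by 2.56 ± 0.64 (adjusted p = 0.00124), but by -1.01 (adjusted p = 0.0207) without the samples high in muscle markers and by 0.02 (adjusted p = 0.992) with the wound as a replicate block. No member passed the test from days 7 and 9 to days 19 and 21 (11% of all genes).

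Other genes of smooth muscle and the actin cytoskeleton moved in both directions. Of 22 tested, 12 were higher and 3 lower in the centers of days 7 and 9 than in day 0 skin, with a median log2 fold change of 0.82. Over all genes tested 32.6% were higher and 34.3% lower, with a median of -0.02. The most abundant were FLNA, an actin crosslinker (1.17), CALD1, caldesmon (1.69), TPM1, another tropomyosin (1.87) and ACTN1, an alpha-actinin (1.75). All 4 passed the test. The 3 lower genes were KCNMB1 (-2.96), ACTG2, the enteric smooth muscle actin (-2.79) and SYNM (-2.65), named here for their small number after their values were seen. DES, desmin, was 0.90 and did not pass. At the edge of days 7 and 9, 12 of the 22 were lower than in the center and none higher, with a median of -0.47, where 20.2% of all genes were lower and 23.8% higher at the edge. All samples entered this fit. In that window 4 of 12 centers and 3 of 12 edges were high in skeletal muscle markers, and their part in the values of this list was not tested.

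Of 18 regulators of contractile gene transcription, 7 were higher and 7 lower in the centers of days 7 and 9 than in day 0 skin, with a median of 0.11, which is close to the 32.6% and 34.3% of all genes. TGFB1, the growth factor that drives myofibroblast differentiation, was 2.77 higher and its receptor TGFBR2 1.12 higher. TGFBR1 was 0.04 and did not pass, and KLF4, a repressor of smooth muscle genes that is also abundant in epidermis, fell by 4.49. Of 17 activated fibroblast genes tested, 14 were higher and 2 lower (median 2.93). FN1, fibronectin, was 3.79 higher and TNC, tenascin, 5.83 higher, and the 2 lower genes were POSTN and LRRC15. On days 19 and 21 TNC was still 5.58 higher, whereas POSTN did not pass (0.60).

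Most vessel markers were higher in the centers of days 7 and 9 than in day 0 skin, though 2 mural cell markers, NOTCH3 among them, were lower. The counts that follow are to be read against 32.6% of all genes higher and 34.3% lower in the centers of days 7 and 9. All 10 endothelial markers were above day 0 in the centers of days 7 and 9, with a median of 1.66, and the most abundant were PECAM1 (1.84), CDH5 (2.16), VWF (1.21) and KDR (2.28). Of 10 pericyte and mural cell markers 7 were higher and 2 lower (median 1.75), with EPAS1 at 1.60, MCAM at 2.24, RGS5 at 0.58 and NOTCH3 at -1.29. The 11 epidermal keratinocyte markers tested were all lower in these centers (median -7.75), with KRT10 at -8.62, KRT1 at -8.40, KRT5 at -7.48 and DSP at -8.29. The 12 neutrophil and macrophage markers were all higher (median 3.56), with LCP1 at 4.49, CSF1R at 2.09, S100A8 at 5.35 and CD163 at 3.35. Of 7 adipocyte markers 1 was higher and 1 lower (median 0.42), and of the most abundant LPL (1.72) passed the test and ADIPOQ (0.77), PLIN1 (-0.19) and LIPE (0.82) did not. Of the 11 skeletal muscle markers 9 were higher in the fit (median 4.46), ACTA1 (8.39) and TTN (6.54) among them, whereas CKM (3.91) and MYH2 (4.46) did not pass. Only 4 of the 12 center samples of that window were above day 0 in the mean of these markers, and the other 8 were between 0.65 and 0.84, below the lowest day 0 sample. The part of these cells in the values of the 8 genes was not tested, beyond leaving out the samples high in muscle markers.

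Across the means of the 29 states, the members formed no single course. TAGLN and MYL9 were the closest pair (Pearson's r = 0.95), followed by ACTA2 and MYL9 (0.92). MYH11 had r = -0.04 with ACTA2, -0.45 with TAGLN and -0.57 with FAP. Over the 14 center states alone these were -0.13, -0.44 and 0.21, and over the 14 edge states 0.26, -0.24 and -0.13. All are descriptions over points that share animals and libraries and, for the 29 states, include the skin samples. Among all genes tested with a symbol, the nearest to ACTA2 were MYL9, TAGLN and TPM1 (0.84), and the nearest to TAGLN were MYL9, CSGALNACT1 (0.93) and TPM2 (0.92). For MYL9 they were TAGLN, CSRP1 (0.93) and ACTA2, and for TPM2 they were TPM1 (0.93), TAGLN and MYL9. The state means include the samples high in skeletal muscle markers. The genes nearest to MYH11 held none of the set: MAGI1 (0.90), SEMA3E (0.89) and LRRN1 (0.88). FAP was nearest to ITGA1, IGFBP4 (both 0.96) and EHD3 (0.95). CNN1 was nearest to PRR15, CSNK1E and SLC4A3 (all 0.75), and LMOD1 to SYNE1 (0.79), RAP2A (0.74) and CNN1 (0.73).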

How the data were processed

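The authors deposited read counts per gene and FPKM for 150 samples of poly-A selected RNA. The counts were used as deposited, and the FPKM served as an alternative scale. The aligner, counting tool and genome build are not given in the sources used here. MYH11 and LMOD1 were identified by the protein name in the gene description, the other 6 by the gene name. The members and the gene lists were chosen with earlier results of these data known. The labels give each sample its day, wound location, animal and wound letter. The main fit was a quasi-likelihood test in edgeR 4.0.16 (R 4.3.3, TMM scaling, low counts removed by filterByExpr at minimum count 10 and minimum total 15) over all 150 samples with the 29 states as the only factor. Contrasts averaged the 2 days of a window, and Benjamini-Hochberg adjusted p-values below 0.05 over the 17916 genes tested were called. All 8 members passed the filter. Samples from 2 wounds of an animal count as separate samples in this fit, so its p-values measure the spread between samples. Animals were therefore also compared by exact sign-flip tests on log2(1 + CPM). Edge and center samples share animal and wound by the labels, and their deviations from the state means correlated on average with r = 0.259, positive in 64 of 72 wounds. Named genes are the members, the 4 most abundant genes of each list, the cell type markers LRRC15, ACTG2, DES and SYNPO2, and the 3 nearest genes by Pearson's r. KCNMB1 and SYNM were named in addition, after their values were seen. In simulated counts of 16589 genes, for the centers of days 7 and 9 against day 0, the fit recovered 89% of 4-fold and 21% of 2-fold changes, and 3.51% of calls were false. The simulation gave every gene the same dispersion and drew all samples independently, so these rates hold for that setting and not for the measured genes. At these depths 3 counts are 1.21e-05% to 2.28e-05% of a library, which covers counting error only. Alternatives were no TMM, DESeq2 1.42.0, no filter, the animal or wound as replicate block, summed wounds, each window fitted apart, samples left out, a pseudocount of 0.5, and FPKM. Some left out no sample of a contrast, such as numbers 4 to 6 for edge against center from day 15 on. These could act only through estimates shared by the fit, and the tallies of alternatives include them. Coordinates and sequences were not used here.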

Additional observations from a re-analysis of the deposited data

Results flagged for a closer look

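Of 168 groups of 6 samples tested for a sample apart from the rest, 16 held one, where chance alone gives about 8.4, or 1 in 20. Each is given with the gap of that sample to its neighbor as a share of the range of its group. TPM2 had 7. Of these, 5 lie in samples high in muscle markers: center sample 6 of day 1 (0.825), center sample 3 of day 3 (0.70), center sample 5 of day 6 (0.804), and both the center (0.708) and the edge (0.774) sample 5 of day 9. The other two were day 3 edge sample 3 (0.64, high) and day 7 center sample 2 (0.636, low). The day 9 center sample 3 of animal 1327 was high in ACTA2 (0.656), at 1031 CPM, and low in MYH11 (0.726), at 8.88 CPM. MYH11 was also low in the day 7 center sample 6 (0.683), at 5.43 CPM. The day 1 edge sample 5 of animal 1325 was high in TAGLN (0.783), MYL9 (0.678) and MYH11 (0.72), and the center sample of that wound had the keratinocyte level of 9.57. MYL9 was low in the day 5 edge sample 3 (0.655). FAP was high in the day 3 edge sample 6 (0.634), the edge sample with the keratinocyte level of 2.29, and low in the day 4 edge sample 5 (0.688). The part of these marker levels in those values was not tested.

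The difference between edge and center changed between days 1 and 2 and days 7 and 9 by -0.973 for CNN1, 0.84 for FAP and 2.56 for TPM2 on the log2 scale, each past the test of the difference itself in the main fit. Of 19 alternatives, the CNN1 call was lost under 10, and the TPM2 call was lost under 2 and reversed under 1. The FAP call was kept under all 19.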

How the results depend on the processing

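Of 129 results past the threshold for single genes, 119 were kept without TMM, 129 with DESeq2, 121 without the filter, 124 with the replicate block, 122 with summed wounds, 123 without the 4 samples set apart and 115 without the samples high in skeletal muscle markers, where 12 were lost and 2 reversed. Both reversals were of TPM2: against day 0 in the centers of days 1 and 2 it became -0.87, and its change of edge minus center became -1.01. With samples of 1 number left out 105 to 120 were kept, and with 1 animal left out 106 to 117. Of 27 tried with each window fitted apart, 25 were kept. The count of gene and window pairs higher at the edge than in the center was 2, and it became 1 without TMM, with the replicate block, with summed wounds, without the samples high in muscle markers, without the 4 set apart and with windows apart, 0 without the filter, and 0 to 3 with samples left out. Between windows there were 11 rises and 5 falls, and 9 and 10 without TMM, whose scale moved the median of all genes by -0.21 in the center and -0.15 at the edge from days 1 and 2 to days 7 and 9. Leaving samples out gave 1 to 5 falls. The change of edge minus center had 2 rises, 1 with the replicate block and without muscle-high samples, 1 to 2 with samples left out, and 1 fall, 0 without TMM, with summed wounds and without the 4 set apart, 0 to 2 with samples left out. Over animals MYH11 was the 1 gene of the set higher at the edge in 6 of 6, and 0 were without the muscle-high samples (exact p = 0.0625). The ACTA2 and MYH11 difference was 3.91 without those samples, and 3.37 to 3.83 without 1 animal, where 5 animals cannot go below an exact p of 0.0625.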

Other observations

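Of the 72 center samples, 53 were below the lowest day 0 sample for LMOD1, 12 for MYL9, 7 for TPM2 and 2 for TAGLN. At the edge those counts were 67, 39, 18 and 14. The ACTA2 to MYH11 ratio per kilobase was between 5.15 and 6.85 at the edge on day 21, the last day sampled, and between 14.3 and 19.0 in the center, each from 3 samples, against 2.25 to 3.40 in day 0 skin.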
